A study of Mus musculus with 13 samples.

Results

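miR-335 is a microRNA made from a hairpin inside Mest, an imprinted gene that is read from the paternal chromosome and was named for its expression in mesoderm. Both of its mature products, mmu-miR-335-5p and mmu-miR-335-3p, were taken by name from the non-control rows of the scanner files. They are 2 of the 1079 mouse miRNAs on the array, and both were among the 419 that were detected on at least 6 arrays and could be tested. They were measured in 13 primary abdominal neuroblastomas (NB), 1 tumour per array. The 7 caspase-8-deficient tumours came with metastasis to the bone marrow. The 6 tumours with wild-type caspase-8 had no such metastasis. Genotype and metastasis therefore changed together, and what goes with one cannot be told apart from what goes with the other. The series title names TH-MYCN mice, in which a tyrosine hydroxylase promoter drives MYCN in the sympathetic lineage, while the design text speaks of spontaneous tumours in wild-type and transgenic animals. The labels do not list the transgene tumour by tumour, and they state neither the ages of the mice nor how caspase-8 was lost. Caspase-8 is a protease that starts apoptosis downstream of death receptors.

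A miRNA hairpin is cut by Drosha and Dicer into a short duplex, and 1 or both strands are loaded onto an Argonaute protein, where bases 2 to 8 of the strand (the seed) find matching sites in messenger RNAs. The arms of one hairpin thus come from the same transcript but carry different seeds. miR-335 has been described as a suppressor of metastasis in human breast cancer cells, where SOX4 and tenascin C are among its targets, and as a brake on the invasiveness of human neuroblastoma cells. Those roles belong to the 5p arm as studied in human cells and are background here.

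Both mature strands are shown because their different seeds are what distinguishes the 2 measured products; the seed is in capitals and sequences are RefSeq's, on the plus strand of chromosome 6 in the GRCm38.p6 build.
miR-335-5p (chr6:30741314-30741336): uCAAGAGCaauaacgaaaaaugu
miR-335-3p (chr6:30741354-30741375): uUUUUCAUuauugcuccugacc
The hairpin that holds them is shown to place the arms, which are in capitals.
Mir335 (chr6:30741299-30741396): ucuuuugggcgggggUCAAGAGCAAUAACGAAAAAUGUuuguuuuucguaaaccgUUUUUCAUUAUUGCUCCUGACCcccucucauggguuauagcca
In the reference gene table the hairpin lies inside the limits of Mest. The 5p strand has 23 bases, of which 7 are G or C, and the 3p strand has 22 bases, of which 8 are. In the fold of lowest predicted energy (RNAfold, −44.3 kcal per mol), 18 bases of the 5p strand paired with the 3p strand. In the hairpin 17 bases lie between the mature strands. Of the 1079 mouse miRNAs on the array, 840 had a mature sequence of the same name in the RefSeq table. Among those 840, 0 others carried the seed CAAGAGC and 0 others carried the seed UUUUCAU. The longest run of bases shared with another of them was 9 for the 5p strand, with miR-719, and 8 for the 3p strand.

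Each arm was read by 40 spots per array. For miR-335-5p these were 20 spots each of 2 probes, and for miR-335-3p 10 spots each of 4 probes. The scanner software marked both arms as detected on 13 of 13 arrays. The brightest probe of the 5p arm, A_54_P2688, was well above background at 260 of 260 spots and had a median spot-to-spot coefficient of variation of 4.97% within an array. It gave a median of 89.7% of the summed 5p signal (range 80.8% to 92.1%), so the 5p level is close to the level of that probe. The other 5p probe, A_54_P2687, was well above background at 146 of 260 spots and at none on 4 arrays. The 3p arm was much dimmer. Its 4 probes were well above background at 277 of 520 spots, from 23 of 130 for A_54_P2690 to 110 of 130 for A_54_P2693, and their median coefficients of variation lay between 13.0% and 20.6%. Across tumours the 2 probes of the 5p arm correlated with r = 0.80, and the 6 pairs of 3p probes with r = 0.84 to 0.96 (13 tumours, probes sharing the array). Levels from the probes of one arm thus tended to rise and fall together across tumours, the dim 3p probes included. Probes of one array also share its background and scaling. Levels are log2 of the summed probe signal after each array was scaled to a common 75th percentile; probes differ in brightness, so the 5p and 3p levels are not ranked against each other.

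**Figure D1:**
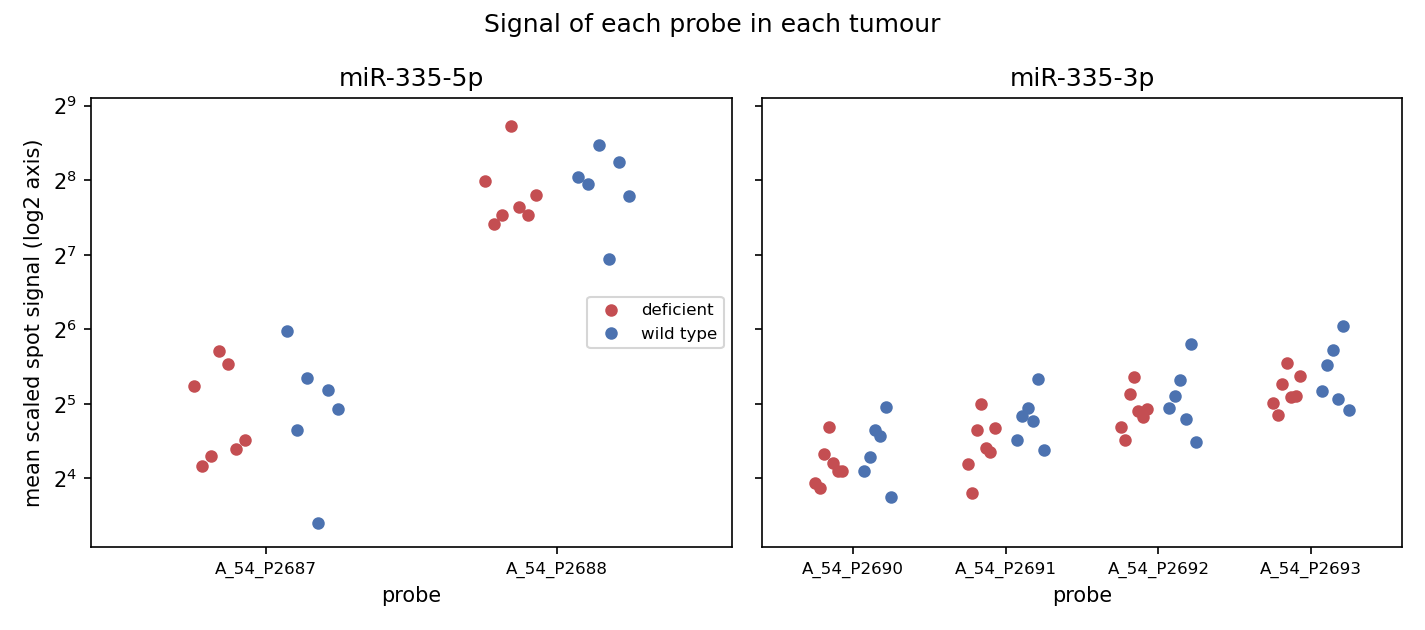
Mean scaled spot signal (log2 axis) of each miR-335 probe in each of 13 tumours, with caspase-8-deficient tumours in red at left and wild-type tumours in blue at right within each probe; each point is 1 tumour. The groups overlap at every one of the 6 probes, and A_54_P2688 carries most of the 5p signal.

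The comparison between the groups asks whether tumours that had spread to the bone marrow, all of them caspase-8-deficient, carried less or more miR-335 than those that had not. Neither arm differed beyond the spread between tumours. miR-335-5p had a lowest, median and highest log2 level of 7.56, 7.94 and 8.89 in the 7 deficient tumours, against 7.06, 8.22 and 8.63 in the 6 wild-type tumours. On the linear scale this is a scaled signal of 189 to 475 in deficient tumours and 134 to 397 in wild-type tumours. The groups overlapped over most of their range: 6 of 7 deficient tumours lay inside the wild-type range, and 1 of 7 above the wild-type median. Its mean was 7.98 ± 0.45 (SD, n = 7) in deficient tumours and 8.09 ± 0.55 (SD, n = 6) in wild-type tumours. The difference, deficient minus wild type, was −0.10 (SE 0.28, limma adjusted p = 0.927). Its 95% interval ran from −0.70 to 0.49, that is from 0.618 to 1.40 times the wild-type level.

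miR-335-3p had a lowest, median and highest log2 level of 6.33, 6.69 and 7.18 in deficient tumours, against 6.44, 6.91 and 7.60 in wild-type tumours. Again 6 of 7 deficient tumours lay inside the wild-type range, and 1 of 7 above the wild-type median. The mean was 6.73 ± 0.28 (SD, n = 7) in deficient tumours and 6.97 ± 0.40 (SD, n = 6) in wild-type tumours. The difference was −0.24 (SE 0.21, limma adjusted p = 0.668), with a 95% interval from −0.68 to 0.20, or 0.623 to 1.15 times the wild-type level. A loss of the 3p arm by more than that lower bound, or a gain above the upper one, lies outside the interval, while smaller changes in either direction are not resolved by 13 arrays. Each of the 6 probes taken alone had a lower mean in deficient tumours, with differences from −0.36 to −0.08. Their exact permutation p-values ran from 0.101 to 0.855, two-sided over 1716 splits into 7 and 6. The probes are parts of the sums already given for the arms, on the same arrays, so their common sign is no separate support.

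Among the 419 tested miRNAs, 0 passed a limma adjusted p under 0.05 (0%), and 16 had an unadjusted p under 0.05 (3.82%). Of those 16, 6 were lower in deficient tumours (1.43% of the 419), and neither arm was among the 16. The groups did not overlap at 1 of the 419 (0.239%), which was neither arm. The smallest adjusted p over all miRNAs was 0.448. By size, 314 of the 419 had a larger absolute difference than miR-335-5p and 211 a larger one than miR-335-3p. The median difference over all tested miRNAs was 0.04, and 192 of 419 had a lower mean in deficient tumours.

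**Figure D2:**
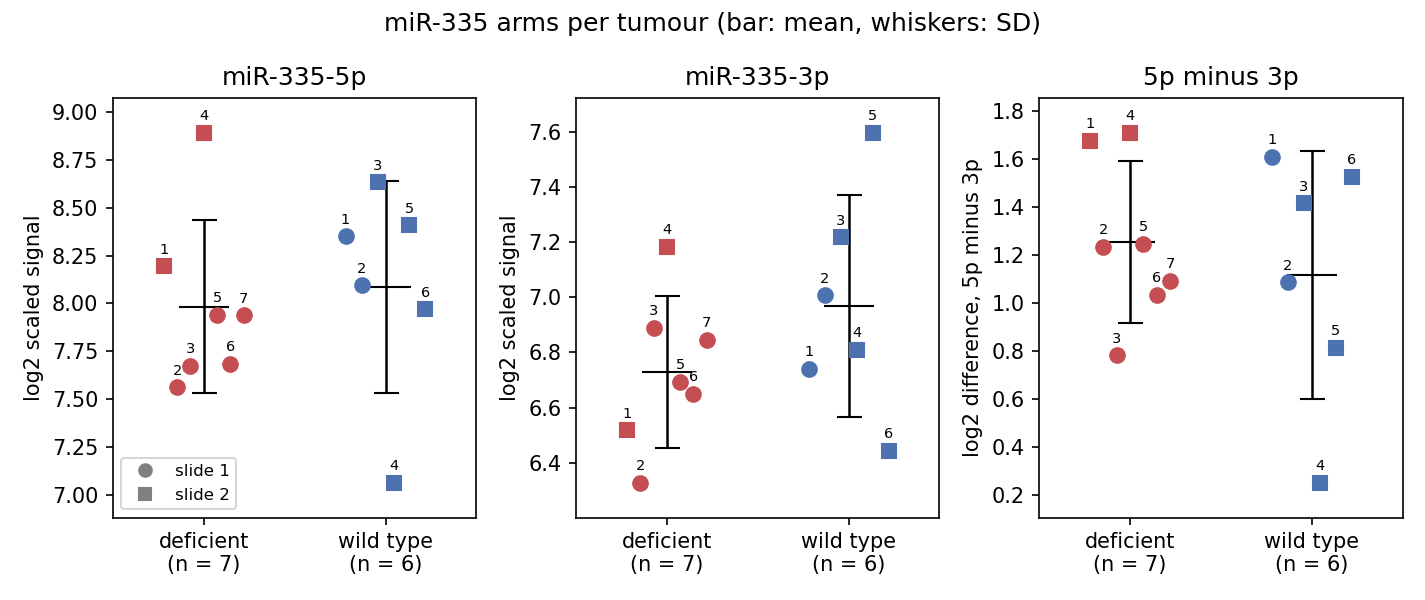
Log2 scaled signal of miR-335-5p (left) and miR-335-3p (middle) and the difference between the arms (right) in each tumour, for caspase-8-deficient (red) and wild-type (blue) tumours; numbers are replicates, circles are slide 1, squares are slide 2, and bars and whiskers are mean and SD. Both arms overlap between the groups, and wild-type replicate 4 has the lowest 5p level (7.06) and the smallest difference between the arms (0.25).

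The individual tumours differed more than the groups did. miR-335-5p spanned 1.83 on the log2 scale between its highest tumour, deficient replicate 4 at 8.89, and its lowest, wild-type replicate 4 at 7.06. Deficient replicates 2, 3 and 6 were the next lowest, at 7.56, 7.67 and 7.68. The 3p arm spanned 1.27, from 7.60 in wild-type replicate 5 to 6.33 in deficient replicate 2. The SD over all 13 tumours was 0.48 for the 5p arm and 0.35 for the 3p arm. Over the 294 miRNAs detected on every array the median SD was 0.47, and 139 of them varied more than the 5p arm and 200 more than the 3p arm. The spread of the 5p arm was thus near the middle of that set, and the spread of the 3p arm in its lower part.

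The arrays lay on 2 slides that each held both groups but unequally: slide 1 had 5 deficient and 2 wild-type tumours, slide 2 had 2 deficient and 4 wild-type tumours. The 5p arm had opposite differences on them. On slide 1 it averaged 7.76 in deficient tumours and 8.22 in wild-type tumours, a difference of −0.46 (exact permutation p = 0.0476, the smallest that 21 splits can give). On slide 2 it averaged 8.54 in deficient tumours and 8.02 in wild-type tumours, a difference of 0.52 (exact permutation p = 0.4). Blocking on slide, the difference was 0.01 (exact permutation p = 0.956 over 315 splits). The change of the difference from slide 1 to slide 2 was 0.99 (SE 0.55, 95% interval −0.21 to 2.18). Its limma p was 0.0971 unadjusted and 0.868 adjusted over the 419 interaction terms. The slides were thus neither shown to differ nor shown to be alike. The 3p arm did not turn: it differed by −0.19 on slide 1 (exact permutation p = 0.333) and by −0.17 on slide 2 (exact permutation p = 0.667). Blocking on slide gave −0.18 for it (exact permutation p = 0.419). A block of 2 to 5 tumours per group and slide leaves little precision for either value.

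The direction of the 5p difference also turned without scaling between arrays (0.09) and without wild-type replicate 3 (0.01). Leaving out wild-type replicate 4, the tumour with the lowest 5p level, gave −0.31 (limma adjusted p = 0.614), and leaving out deficient replicate 4, the highest, gave −0.25. The 3p difference kept its sign under all alternatives run, between −0.43 and −0.05, though the floor and detection filter alternatives could not change it. Without scaling the median of all tested miRNAs moved up by 0.18. Relative to that median the 5p arm was at −0.13 and the 3p arm at −0.26, against −0.14 and −0.28 as reported. Scaling moves all miRNAs of an array alike, apart from values at the floor. These relative values could therefore hardly change and are no further support for a direction.

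**Figure D3:**
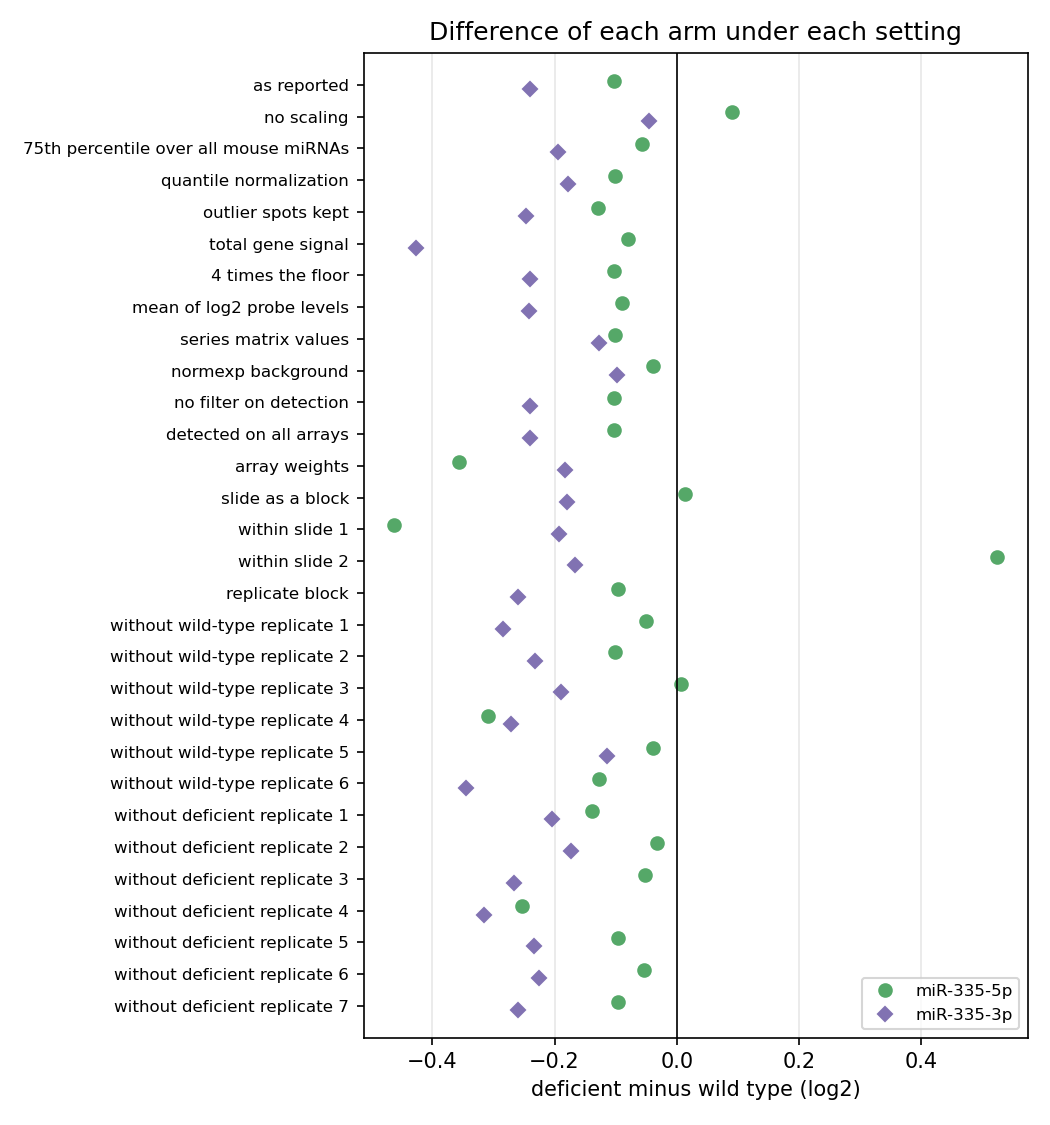
Difference in log2 level, deficient minus wild type, of miR-335-5p (circles) and miR-335-3p (diamonds) as reported and under each alternative setting, including each tumour left out. The 3p values all lie below 0, between −0.43 and −0.05, while the 5p values run from −0.46 within slide 1 to 0.52 within slide 2.

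Since both arms come from one hairpin, their balance can be followed within each array, where scaling cancels. The log2 difference between the arms, 5p minus 3p, was 0.78, 1.23 and 1.71 (lowest, median and highest) in deficient tumours and 0.25, 1.25 and 1.61 in wild-type tumours. It averaged 1.25 ± 0.34 (SD, n = 7) in deficient tumours and 1.12 ± 0.52 (SD, n = 6) in wild-type tumours, a difference of 0.14 (exact permutation p = 0.588). The size of the balance itself has no meaning because the probes differ in brightness. Within slides the difference was −0.27 on slide 1 (exact permutation p = 0.333) and 0.69 on slide 2 (exact permutation p = 0.133), and blocking on slide it was 0.19 (exact permutation p = 0.524). Wild-type replicate 4, at 0.25, had much the smallest balance. Without it the difference was −0.04 (exact permutation p = 0.851).

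How closely the arms followed each other depended on the processing. As reported, over the 13 tumours Pearson's r was 0.54 (permutation p = 0.0566, adjusted p = 0.283 over 5 relations) and Spearman's rho 0.53 (permutation p = 0.0659, adjusted p = 0.33). Without the 2 tumours farthest from the median of the 5p arm, replicates 4 of both groups, r was 0.63 (permutation p = 0.0367). Within groups r was 0.67 in the 7 deficient and 0.45 in the 6 wild-type tumours, and within slides 0.50 on slide 1 and 0.48 on slide 2. Without scaling r was 0.78 (permutation p = 0.0023, not adjusted). Unscaled levels of any 2 miRNAs share the brightness of their array, and this p-value does not take that into account. With the brightest probe of each arm alone r was 0.66 (permutation p = 0.014, not adjusted), and with normexp background correction 0.15 (permutation p = 0.617). Among all tested miRNAs ranked by r, the 3p arm stood at place 56 for likeness to the 5p arm, and the 5p arm at place 19 for likeness to the 3p arm.

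**Figure D4:**
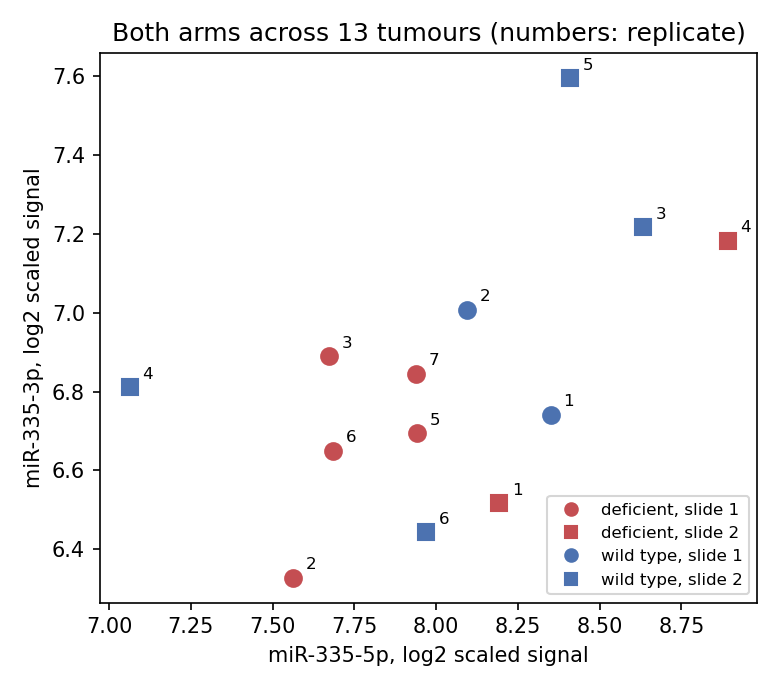
Log2 scaled signal of miR-335-3p against miR-335-5p in the 13 tumours, with caspase-8-deficient tumours in red and wild-type tumours in blue, slide 1 as circles and slide 2 as squares, and replicate numbers beside the points. As reported r was 0.54, and wild-type replicate 4 (5p 7.06, 3p 6.81) lies apart at the low end of the 5p axis.

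The other 4 relations of the family set each arm against the brightness of the array and against mesenchymal miRNAs, and 0 of them passed the threshold. With the log2 75th percentile of the array r was 0.25 for the 5p arm (permutation p = 0.419) and −0.13 for the 3p arm (permutation p = 0.662). Within the deficient tumours these were 0.78 and 0.65, and within the wild-type tumours −0.09 and −0.48. With the mean of the mesenchymal list (7 tested miRNAs such as miR-199a and miR-143, which are abundant in fibroblasts and smooth muscle) r was −0.06 for the 5p arm (permutation p = 0.841) and −0.28 for the 3p arm (permutation p = 0.366). The adjusted p-values of these 4 relations were 0.699 to 0.841.

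The miRNAs whose levels were most like each arm over the 13 tumours were named by the highest Pearson r, as a description; all of them share the arrays and the scaling. For miR-335-5p these were miR-744-5p (r = 0.81), miR-101a-3p (0.75), miR-382-3p (0.75), miR-337-3p (0.74) and miR-380-3p (0.73). The genes of the last 3 lie in the imprinted Dlk1-Dio3 region of chromosome 12, which held 60 of the 419 tested forms. These 60 had a median r of 0.47 with the 5p arm and 0.18 with the 3p arm. The 3 named forms are among the 60, and the region was added after its values were seen. Its median is thus a description and no separate support for a likeness. Over all tested miRNAs the median r was 0.10 with the 5p arm and 0.10 with the 3p arm. For miR-335-3p the most alike were miR-181b-5p (0.81), miR-27b-3p (0.74), miR-350-3p (0.66), miR-149-5p (0.65) and miR-340-5p (0.65). The sets of 5 had no name in common. Several rested on 1 slide: miR-337-3p had r = 0.12 with the 5p arm on slide 1 and 0.86 on slide 2, and miR-181b-5p had r = 0.18 with the 3p arm on slide 1 and 0.94 on slide 2. On the same slides miR-149-5p had r = 0.02 and 0.77 with the 3p arm. With the 5p arm miR-382-3p had 0.52 and 0.85, and miR-380-3p had 0.48 and 0.92. miR-744-5p kept r = 0.82 and 0.96. Its own group difference was −0.57 (limma adjusted p = 0.589).

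Other miRNA genes lie near Mest on chromosome 6, and they were set beside miR-335 as a list of 12 mature forms, from miR-129-1 on one side through the miR-182, miR-96 and miR-183 cluster to miR-29a and miR-29b-1 on the other. Only 4 of the 12 were tested, and the other 8, which include all 6 forms of the miR-182, miR-96 and miR-183 cluster, were detected on 0 arrays. All 4 tested forms had lower means in deficient tumours, under every scaling run, and 0 passed the test; within slide 1, miR-29a-3p was higher, by 0.18. Their median difference was −0.83, against 0.04 over all tested miRNAs. miR-129-1-3p, a brain-enriched miRNA made only from the chromosome 6 gene, was at 6.91 ± 0.80 (SD, n = 7) in deficient tumours and 7.70 ± 0.79 (SD, n = 6) in wild-type tumours, a difference of −0.79 (limma adjusted p = 0.589). miR-29a-3p, a repressor of collagen transcripts, was at 10.96 ± 0.55 (SD, n = 7) in deficient tumours and 11.48 ± 0.78 (SD, n = 6) in wild-type tumours, a difference of −0.52 (limma adjusted p = 0.641). miR-129-5p and miR-29b-3p are each also made from a gene elsewhere, and they differed by −1.13 and −0.86 (limma adjusted p = 0.589 for both). The mean of the 4 forms correlated with the 5p arm at r = 0.49 and with the 3p arm at r = 0.29 over 13 tumours.

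A further list held miRNAs of some other imprinted loci, chosen without the large clusters at Dlk1-Dio3 and Sfmbt2: miR-675 of H19, miR-483 of Igf2, and miR-296 and miR-298 of the Gnas region, with 8 forms in all, of which 4 were tested. All 4 had lower means in deficient tumours as reported, 0 passed the test, and the median difference was −0.28. Of these, miR-483-5p turned with array weights (0.16), within slide 1 (0.24) and without wild-type replicate 4 (0.15). Without scaling it was at 0.03. Relative to the median of all tested miRNAs it was at −0.19, against −0.21 as reported, a value that scaling can hardly change. The Dlk1-Dio3 region on chromosome 12, added after its values were seen, went both ways: of its 60 tested forms, 37 had higher and 23 lower means in deficient tumours, 0 passed the test, and the median difference was 0.06. Without scaling, where the median of all tested miRNAs moved up by 0.18, 52 had higher and 8 lower means, with a median of 0.25. miR-483-3p was at 6.93 ± 0.54 (SD, n = 7) in deficient tumours and 7.47 ± 0.37 (SD, n = 6) in wild-type tumours, a difference of −0.55 (limma adjusted p = 0.589), and miR-483-5p, from the same hairpin in Igf2, differed by −0.17 (limma adjusted p = 0.905). miR-296-5p differed by −0.31 (limma adjusted p = 0.668) and miR-298-5p by −0.26 (limma adjusted p = 0.644). miR-483-5p ran against miR-335-5p with r = −0.60 over 13 tumours, and with r = −0.26 without wild-type replicate 4. That tumour had the highest miR-483-5p, at 10.85, and the lowest miR-335-5p. miR-675-3p was detected on 1 array, and miR-675-5p, miR-296-3p and miR-298-3p on none.

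miR-126, miR-206 and miR-31 have been described beside miR-335 as metastasis suppressors in human breast cancer cells. Of their 6 forms 3 were tested, 2 with a higher and 1 with a lower mean in deficient tumours, and 0 passed. miR-126-3p, the main miRNA of endothelium, was at 11.52 ± 0.70 (SD, n = 7) in deficient tumours and 11.02 ± 0.34 (SD, n = 6) in wild-type tumours, a difference of 0.51 (limma adjusted p = 0.589). miR-126-5p differed by 0.20 (limma adjusted p = 0.805). miR-206-3p, a skeletal muscle miRNA, differed by −0.73 (SE 0.72, limma adjusted p = 0.70). miR-31-5p was detected on 1 array, and miR-206-5p and miR-31-3p on none. The forms that could be tested correlated with miR-335-5p at r = 0.01 to 0.16. With miR-335-3p they had r = 0.003 (miR-126-3p) to 0.36 (miR-206-3p). Their mean had r = 0.13 with the 5p arm and 0.31 with the 3p arm (0.58 on slide 1 and 0.08 on slide 2).

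**Figure D5:**
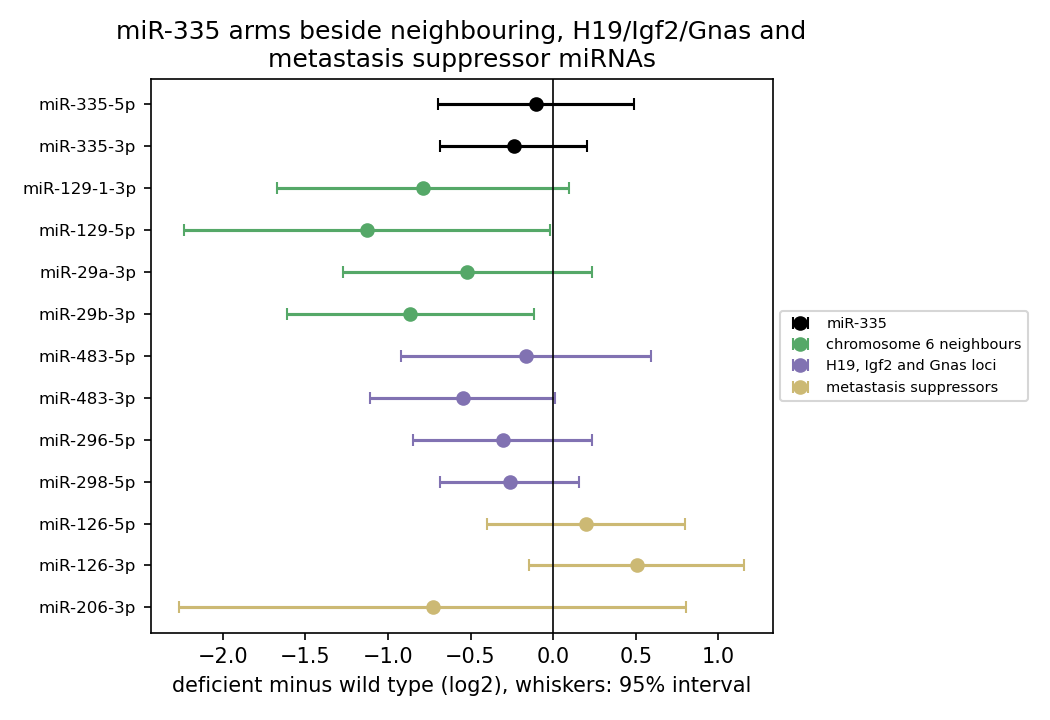
Difference in log2 level, deficient minus wild type, with its 95% interval (limma, 7 and 6 tumours), for both arms of miR-335 and the tested miRNAs that neighbour Mest, come from the H19, Igf2 and Gnas loci or are described as metastasis suppressors. The 4 neighbouring and 4 Igf2 and Gnas forms shown lie below 0, from −1.13 to −0.17, though miR-483-5p turned with array weights (0.16), and 0 of the 13 miRNAs shown passed the adjusted threshold.

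Markers of the tumour cells and of other cell types were read on the same arrays, as lists. All 7 neuroblast and neuron miRNAs, such as miR-124-3p and miR-375-3p, were tested and were detected on 13 of 13 arrays, and their mean level lay between 9.16 and 9.83 in deficient tumours and between 9.15 and 10.07 in wild-type tumours. That mean correlated with miR-335-5p at r = 0.50 (0.75 on slide 1 and 0.86 on slide 2) and with miR-335-3p at r = −0.09. Its members were split. With miR-335-5p they ran from r = 0.01 for miR-9-5p to 0.56 for miR-128-3p, with miR-375-3p at 0.08. With miR-335-3p they ran from −0.39 for miR-9-3p to 0.49 for miR-128-3p. The mean of the 7 tested mesenchymal miRNAs lay between 6.86 and 8.14 in deficient tumours and between 6.73 and 8.27 in wild-type tumours, and that of the 4 tested leukocyte miRNAs between 7.04 and 9.05 in deficient tumours and between 6.50 and 9.26 in wild-type tumours. The mean of the 4 tested skeletal muscle miRNAs spread far more, from 4.48 to 10.63 in deficient tumours and from 5.16 to 9.49 in wild-type tumours. Of the 7 mesenchymal forms 6 had higher means in deficient tumours and 1 a lower one. Their median difference was 0.28, against 0.04 over all tested miRNAs. The neuroblast and neuron list had 3 higher and 4 lower, the leukocyte and skeletal muscle lists 2 higher and 2 lower each. In these lists 0 were called. The 3 tested erythroid miRNAs, miR-451, miR-144-3p and miR-144-5p, averaged 9.76 to 11.71 in deficient tumours and 7.79 to 11.34 in wild-type tumours, all 3 with higher means in deficient tumours and 0 called. Their mean ran against miR-335-3p with r = −0.72 over 13 tumours (−0.64 on slide 1 and −0.79 on slide 2), and between −0.76 and −0.67 with each tumour left out in turn. Its r with miR-335-5p was −0.29 (−0.74 on slide 1 and −0.24 on slide 2), and omitting wild-type replicate 3 gave −0.08, while omitting wild-type replicate 4 gave −0.45. miR-486-3p, another erythroid form, was not in the list and was detected on 1 array. The part of blood or of other cells in the miR-335 values was not tested, and in bulk tumours fewer cells of a type cannot be told apart from less RNA per cell. The arrays had 338 to 469 detected mouse miRNAs and an unscaled 75th percentile of 851 to 1929, both lowest in wild-type replicate 2.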

How the data were processed

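Total RNA from 13 mouse tumours was labelled with Cy3 and hybridised to 1-colour Agilent miRNA arrays, per the labels' protocols. The deposited scanner files hold linear spot intensity after background subtraction and spatial detrending, unscaled between arrays (Feature Extraction 10.7.3.1 per the file headers, 10.5.1.1 per the submitters' processing notes). The deposited marks for detection, outliers and saturation are yes or no values, classed as other, per the file headers. The authors' deposited series matrix holds log2 values of equal distribution across arrays and served as an alternative.

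Of 47604 spots per array 2164 were controls and were left out, and 0 were saturated. Spots without outlier marks were averaged per probe and summed per miRNA. To scale the arrays, the 75th percentile of the 294 miRNAs found on all 13 was brought to its geometric mean on each. Sums under 17.2, percentile 1 among detected values, were set to it before log2 was taken. Neither arm was at the floor.

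Testing covered the 419 miRNAs present on at least 6 arrays, and was done with limma 3.58.1 (R 4.3.3; lmFit, eBayes, two-sided, Benjamini-Hochberg, threshold 0.05), checked on simulated data. Single values used two-sided exact permutation over tumours, and correlations 100000 permutations (SciPy 1.17.1). Hairpin folding used RNAfold 2.7.2. Named miRNAs were both arms, the 5 most like each arm by Pearson r, and lists written from background knowledge. The members and lists were chosen with earlier results of these data known. Alternatives covered scaling, background, probe summary, outlier spots, detection filter, floor, array weights, the series matrix, slide, replicate number and each tumour left out. Normexp ran on median signals with an offset of 50. Correlations and directions of listed miRNAs under each setting, counts for the Dlk1-Dio3 region (from Mir770 to Mir1247 in RefSeq order), single probes, exact permutation in place of limma and the slide interaction were added after seeing the data. Replicates are labelled biological. Precision is limited by how many arrays there are. The array design names mm9, so no coordinates are given for it, and the printed positions are RefSeq's own on GRCm38.p6.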

Additional observations from a re-analysis of the deposited data

Results flagged for a closer look

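A Dixon test for a single tumour far from the rest of its group was run on both arms of miR-335, the balance of the arms and the tested neighbouring, imprinted and metastasis suppressor miRNAs, over 28 sets of tumours; chance sets off about 1 in 20. Neither arm of miR-335 nor their balance was past the critical value, with the largest ratio, 0.577, for the low miR-335-5p of wild-type replicate 4. miR-483-5p was at 10.85 in wild-type replicate 4, while the next highest wild-type tumour was at 9.13. miR-126-5p was at 4.36 in deficient replicate 2, while the next lowest deficient tumour was at 5.51.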

How the results depend on the processing

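No miRNA passed the threshold as reported or under any of the 16 settings and 13 omissions of a tumour run (0 each time by limma, with 7 to 63 at an unadjusted p under 0.05, the most with the replicate number as a block). The miR-335-3p difference kept its sign in all 21 alternatives (−0.427 to −0.046) and without each tumour (−0.345 to −0.114). The miR-335-5p difference kept it in 16 of 19. It was 0.0906 without scaling, 0.0136 with slide as a block and 0.524 within slide 2, and leaving out 1 tumour gave −0.308 to 0.00634. The counts for the arms include the higher floor, the detection filters and the exact permutation. These could not change the difference of either arm, so they add no support. The single probes are counted too, and as parts of the same sums they add no separate support. The balance of the arms was −0.27 within slide 1 and −0.0365 to 0.235 without each tumour. The correlation of the arms crossed the unadjusted threshold without scaling (r = 0.775), where both arms share the brightness of the array. It also did so with the percentile over all mouse miRNAs (0.684), quantile normalization (0.642), outlier spots kept (0.583), the series matrix (0.685) and the brightest probes (0.66). It was 0.154 with normexp background and 0.39 with the mean of log2 probe levels. Without each tumour it was 0.472 to 0.656, past the threshold when wild-type replicate 4 (0.656) or deficient replicate 1 (0.594) was omitted. The cause was not tested. With the replicate number as a block, over tumours 1 to 6 of each group, the differences were −0.0956 for the 5p arm and −0.259 for the 3p arm, and the balance differed by 0.163. The labels do not say whether the numbers pair the tumours. Deviations of same-numbered tumours correlated with r = −0.22 to 0.19, over 0.1 in 3 of 6 pairs, which cannot settle it.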
